A study of Mus musculus with 9 samples.

Results

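The genes described here mark beta cells that have lost their mature state (Aldh1a3), endocrine and ductal progenitors of the pancreas (Neurog3, Sox9, Sox4, Sox11 and the Notch effector Hes1) and growth control by the MYC family (Myc, Mycn and Mycl). They were chosen by name for what they are known to do, and they are 9 of the 54347 genes in the table. All 9 had reads, and 8 passed the filter on low values and were tested among 15532 genes. Sox11 did not pass and is given by its values.

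RNA was sequenced from 6 pancreatic neuroendocrine tumors (PanNETs) of INS-p25OE mice and from 3 normal islet samples, with 1 library made from each. INS-p25OE mice carry Ins2-rtTA, in which the insulin promoter drives the doxycycline-dependent activator in beta cells, and tetOp-p25GFP, which gives p25, the truncated Cdk5 activator, fused to GFP. Doxycycline was given in drinking water from weaning at 3 to 4 weeks of age, at 1 mg/L by the methods and the series' design text, and all animals were on a C57BL/6 background. Another passage of the study gives the dose in grams in place of milligrams, so the dose is not settled here. The labels mark M1, M2 and M3 as insulin tumors, called functional in the study, and M4, M5 and M6 as tumors without that mark, called non-functional. The labels give the islets of NI1, NI2 and NI3 as C57BL/6 strain, and the methods name transgene-negative littermates, housed with the bi-transgenic animals, as the normal controls. M2 came from a female and the other 8 libraries from males. The methods give doxycycline to the offspring without setting the littermates apart, but do not say whether these islets came from such littermates. The ages at collection are not given in the sources used here.

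Library totals ranged from 36468280 to 63637175 counts, so that 3 counts in a library corresponded to between 0.0425 and 0.119 CPM, which is a count scaled to the library total. All levels below are CPM scaled by TMM, a method that corrects totals for composition. Islet identity was checked by Ins2, at 88895 to 248686 CPM in the islets and 7313 to 88719 CPM in the tumors. Cdk5r1, the gene that encodes p35 and its p25 fragment, was at 149 to 401 CPM in the tumors, at 18.4 and 12.5 in NI2 and NI3, and at 280 in the library labelled NI1. In this gene that library therefore went against its label, and its profile was closest to M6 (Pearson r = 0.975 over log values). By the same measure NI2 with NI3 had 0.957 and M6 with the other tumors 0.866 to 0.911. NI1 had 0.906 with NI2 and 0.895 with NI3, and 0.863 to 0.902 with M1 to M5. For the 8 tested genes the level in M6 divided by that in the library labelled NI1 lay between 0.74 and 1.28. The pair nonetheless differed in other genes, such as Gcg, which encodes glucagon (34.6 CPM in M6 and 787 in NI1), and Fos, an immediate early gene (1.41 and 156). Differences of the 8 tested genes from the islets are therefore given with and without NI1. Values without another library are added where leaving it out moved the fold change by over 1.5 times. In M4, 32.1% of counts were mitochondrial, against 1.76% to 8.41% elsewhere.

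In the embryonic pancreas, Sox9-positive duct-like progenitors switch on Neurog3 for a short time, and Neurog3 then starts the endocrine programme. Notch signaling through Hes1 holds Neurog3 down, and Sox4 and Sox11 are related factors of developing tissues. Mature beta cells hold these genes low. When beta cells dedifferentiate under metabolic stress they lose insulin and other mature products and take up Aldh1a3, an enzyme that makes retinoic acid. MYC proteins bind DNA with MAX and drive growth, and Myc, Mycn and Mycl are used in different tissues and at different stages.

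**Figure D1:**
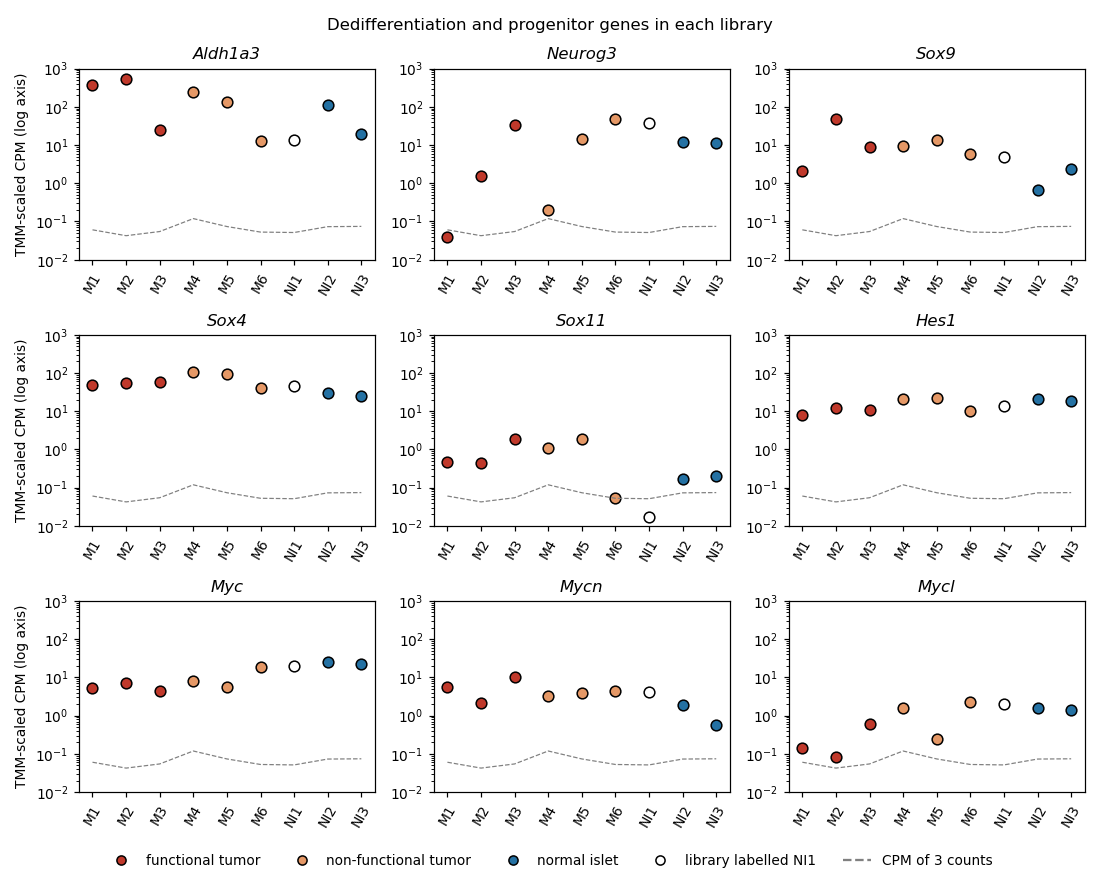
TMM-scaled CPM (log axis) of the 9 genes in each of the 9 libraries. Colours give functional tumors (M1 to M3), non-functional tumors (M4 to M6) and islets, with NI1 as an open symbol. The dashed line is the CPM of 3 counts in each library. All 6 tumors lie below all islets for Myc, while Aldh1a3 and Neurog3 each spread widely across the tumors.

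None of the 8 tested genes separated tumors from islets at an adjusted p under 0.05 in the quasi-likelihood test of edgeR on all libraries, a threshold that 0.258% of all tested genes passed. The differences that came nearest were a lower level of Myc in the tumors (log2 difference -1.44, SE 0.43, adjusted p = 0.161) and higher levels of Sox4 (1.00, SE 0.35, adjusted p = 0.18) and Sox9 (2.47, SE 0.98, adjusted p = 0.212). Those 3 of 8 genes had an unadjusted p under 0.05, as did 19.8% of all tested genes. Without NI1 the count of the 8 genes past the threshold was also 0, where 8.51% of all genes passed, a share too small to set these 8 apart. Without M6 it was 1, Myc, against 1.4% of all genes. Without both libraries it was 2, Myc and Sox4, against 9.34%. DESeq2, the tool the study used, called Myc and Sox9 on all libraries, against 8.06% of all genes, and Sox9, Sox4, Myc and Mycn without NI1, against 19% of all genes.

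Groups that did not overlap gave a similar count. Myc alone of the 8 genes had every tumor on one side of every islet library, as did 7.67% of all tested genes. Against NI2 and NI3 alone, Sox4 and Mycn lay above and Myc below in every tumor, 3 of 8 genes against 32.9% of all genes. Both counts were near what those shares give for 8 genes. The study's methods call its samples biological replicates, and p-values here measure the spread between these samples, with 3 islet libraries at most. In bulk tissue a lower level in fewer cells and a lower level per cell cannot be told apart.

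**Figure D2:**
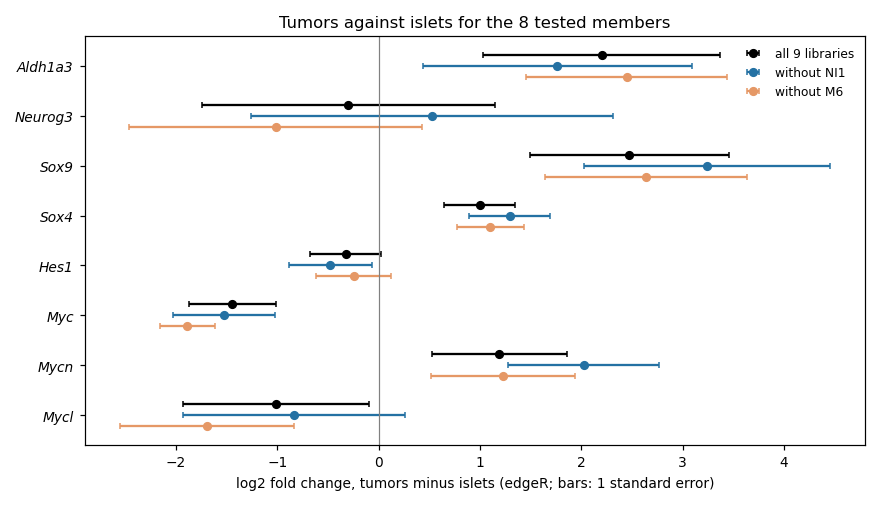
Log2 difference between tumors and islets for the 8 tested genes, with the standard error as a bar. Fits are from all libraries, with NI1 left out and with M6 left out. Sox4, Sox9, Mycn and Aldh1a3 lie above 0 and Myc, Mycl and Hes1 below 0 in each fit. Neurog3 changes sign (-0.30, 0.53 and -1.02 in that order).

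Aldh1a3 (ENSMUSG00000015134, chr7:66390890-66427517, minus strand, GRCm38) encodes the retinaldehyde dehydrogenase used as a marker of beta cell dedifferentiation. It was at 366, 535 and 25.3 CPM in M1, M2 and M3 and at 241, 131 and 12.5 in M4, M5 and M6. The islets had 13.9 in NI1, 109 in NI2 and 19.9 in NI3. M1, M2, M4 and M5 thus lay above every islet library, M3 lay among the islets, and M6 lay below them all. The tumors spanned a 42.9-fold range, and their coefficient of variation of 93.9% was above that of 93.9% of the tested genes. The mean was 218 ± 205 CPM in tumors (SD, n = 6) and 47.5 ± 53.2 in islets (SD, n = 3), a log2 difference of 2.20 (SE 1.17, edgeR adjusted p = 0.319). Without NI1 the log2 difference was 1.76 (adjusted p = 0.426), without M6 it was 2.45 (adjusted p = 0.193), and without NI2 it was 3.69 (adjusted p = 0.582). The spread among islets was itself wide, since NI2 held 109 CPM and NI3, prepared under the same label, 19.9.

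Functional tumors had a mean of 309 ± 260 CPM of Aldh1a3 and non-functional tumors 128 ± 114 (SD, n = 3 each). The groups overlapped, and the log2 difference of 1.27 (SE 1.22) had an edgeR adjusted p of 0.744. It was 0.61 without M2 and 2.08 without M4. Per length of exon Aldh1a3 had the highest tumor median of the 9 genes, at 40.2 CPM per kb in tumors and 4.31 in islets.

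Among other genes of retinoic acid metabolism and response, 14 of 20 listed were tested and 0 passed in edgeR, and their median log2 difference was 0.13 beside 0.03 for all tested genes. DESeq2 called Aldh1a2, a sister enzyme of Aldh1a3 known from mesenchyme, as higher (5.66, 9.02, 6.67, 41.3, 2.43 and 0.686 CPM in M1 to M6, and 1.05 to 1.54 in the islets). In that DESeq2 fit 8.06% of all genes passed. Aldh1a2 was highest in M4 and below the islet range in M6. The summed fibroblast markers were also highest in M4, at 1457 CPM, and lowest in M6, at 72.3, against 90.2 to 153 in islets. The part of fibroblasts in these values was not tested. Aldh2, a mitochondrial aldehyde dehydrogenase, had 39.4 to 70.7 CPM in the tumors and 75.5 to 94.9 in the islets, with no overlap (log2 difference -0.63, adjusted p = 0.181, and 0.125 without NI1).

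Of 15 products and factors of the mature beta cell, all tested, 0 passed in edgeR on all libraries. Without NI1, 1 fell, G6pc2, a subunit of a glucose phosphatase of islets, where 8.51% of all genes passed. In DESeq2 on all libraries 4 fell, Ins1, Ins2, G6pc2 and Iapp, where 8.06% of all genes passed. The median log2 difference was -0.36. G6pc2 was at 462 to 1395 CPM in the tumors, 805 in NI1 and 1862 and 3809 in NI2 and NI3 (log2 difference -1.78 without NI1, adjusted p = 0.0388). Ins1 had a log2 difference of -1.89 (edgeR adjusted p = 0.196, and 0.0891 without NI1) and Ero1b, an oxidase of insulin folding, -0.93 (edgeR adjusted p = 0.188, and 0.0515 without NI1, at 446 to 1072 CPM in tumors and 719 to 1713 in islets). Of transcription factors that keep the mature state, Mafa was at 91.8 to 290 CPM in tumors and 167 to 228 in islets, and Nkx6-1 at 300.5 to 1290 and 630 to 689. Set beside Aldh1a3, Ins2 was at 57492, 9544 and 7313 CPM in M1, M2 and M3 and at 39104, 61737 and 88719 in M4, M5 and M6. M2, with the most Aldh1a3, and M3, with little, were the tumors with the least Ins2.

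Of genes that mature beta cells are known to keep low, 15 of 16 were tested and 0 passed in edgeR, with a median log2 difference of 0.12. DESeq2 called Cck, which encodes the gut hormone cholecystokinin, as higher (2.36, 36.1, 6.20, 2.22, 47.9 and 0.264 CPM in M1 to M6, and 0.0343 to 0.317 in islets) and Cxcl12, a chemokine, as lower (3.73 to 22.6 in tumors and 25.7 to 46.7 in islets). In that DESeq2 fit 8.06% of all genes passed. M6 lay among the islets for Cck. Pdgfra, a receptor of fibroblasts, was at 2.80 to 15.1 CPM in tumors and 3.17 to 4.51 in islets (log2 difference 1.27, edgeR adjusted p = 0.247, and 0.311 without NI1).

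Neurog3 (ENSMUSG00000044312, chr10:62133090-62134763, plus strand, a single exon) encodes the factor that commits progenitors to the endocrine lineage. It was at 0.0403, 1.56 and 34.4 CPM in M1, M2 and M3, and at 0.198, 14.4 and 49.2 in M4, M5 and M6. The islets had 38.4 in NI1, 11.7 in NI2 and 11.4 in NI3. M1, M2 and M4 lay below every islet library, M6 lay above them all, and M3 and M5 lay between. The level in M1 rested on 2 counts, for which the exact Poisson interval at 95% was 0.00488 to 0.146 CPM, covering counting error alone. The log2 difference between tumors and islets was -0.30 (SE 1.44, edgeR adjusted p = 0.932) on all libraries 0.53 (adjusted p = 0.881) without NI1 and -1.02 (adjusted p = 0.72) without M6. Its coefficient of variation among tumors, 125%, exceeded that of 97.7% of the tested genes, so a group mean says little about any one tumor. Functional tumors had 12.0 ± 19.4 CPM and non-functional tumors 21.3 ± 25.2 (SD, n = 3 each), a log2 difference of -0.83 (SE 1.77, adjusted p = 0.898) that was -4.71 without M3 and 0.71 without M6.

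The exon of Neurog3 shares 273 bases, or 16.3% of its length, with Fam241b on the other strand, and the kit used does not mark strand. Fam241b had 698 counts in M1 and 358 in M4, where Neurog3 was at its lowest, and 2748 in M6. Scaled as CPM it was highest in M6 and lowest in M1, as was Neurog3. Reads from the shared stretch could not be assigned by strand, and their number was not tested.

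Because HES1 is known to act on the Neurog3 promoter, the 150 bases before its RefSeq start (GRCm38.p6, chr10:62132940-62133089, plus strand) are shown. Nothing is in capitals in this sequence, since no match to the motifs searched was found in the 250 bases before the start.
Neurog3: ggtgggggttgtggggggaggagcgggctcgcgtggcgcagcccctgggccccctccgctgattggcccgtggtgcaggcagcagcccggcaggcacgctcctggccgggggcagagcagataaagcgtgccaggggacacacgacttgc
The motifs were searched on both strands and were the E-box CACGTG bound by MYC and MAX, the N-box CACNAG bound by HES1, the RBPJ site GTGGGAA and the E2F site TTTNGCGC. Among 32536 windows of the same length, 6.04% held the E-box, 36.7% the N-box, 5.43% the RBPJ site and 1.14% the E2F site. The table of RefSeq promoters held 5 of the 9 genes (Neurog3, Sox4, Sox11, Mycn and Mycl). Sox4, Sox11 and Mycl each had 1 N-box and no other match. A match is a run of letters and was not tested as a binding site. Only these motifs were searched, so the lack of a match does not show that HES1 has no site in the Neurog3 stretch.

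Among the genes that act beside or after Neurog3 in the endocrine cascade, 13 of 15 were tested and 0 passed on all libraries (median log2 difference 0.29). Without NI1 the median was 0.55, beside 0.05 for all genes, and Pax4 passed as higher in the tumors (adjusted p = 0.0435, a threshold that 8.51% of all genes passed). Pax4, a factor that Neurog3 switches on in the embryo and that favours the beta cell fate, was at 0.786, 24.6, 144, 6.26, 46.7 and 71.1 CPM in M1 to M6 and at 58.0 in NI1. It had 0 counts in NI2 and NI3, where Neurog3 was at 11.7 and 11.4 CPM. Taking 3 counts in either library as the limit, at most 0.0743 CPM, Pax4 was at least 10.6-fold higher in M1 and at least 1939-fold higher in M3. With NI1 among the islets the groups overlapped (adjusted p = 0.727). Both Neurog3 and Pax4 were highest in M3 and M6, followed by M5, M2, M4 and M1 in that order, an order looked at after the values were seen.

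Other factors of the cascade varied less. Neurod1, a direct target of Neurog3, was at 120 to 230 CPM in the tumors and 164 to 228 in the islets, and Insm1 at 126 to 255 and 176 to 192. Myt1, Runx1t1 and Isl1 had the smallest p-values of the list on all libraries, with log2 differences of 0.51, 0.44 and 0.60 and adjusted p of 0.397, 0.206 and 0.261. Fev, a factor of late endocrine precursors, was at 17.6 CPM in M5 and 12.5 in M6 and at 0.0604 or less in the other 4 tumors, with 10.99, 1.22 and 5.53 in NI1, NI2 and NI3.

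**Figure D3:**
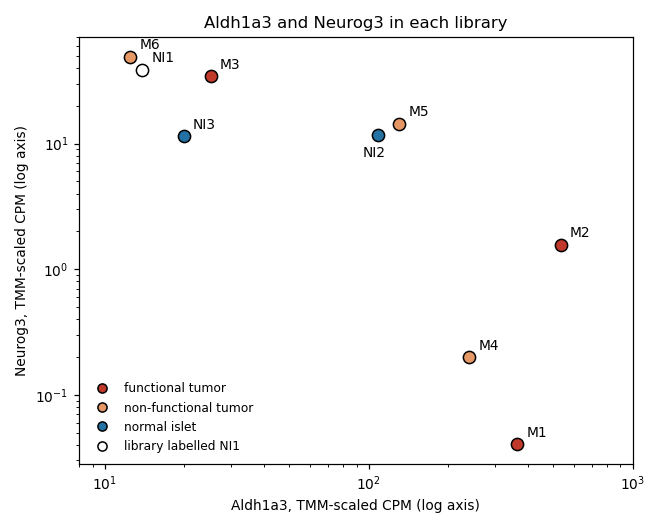
Level of Neurog3 against that of Aldh1a3 in each library (TMM-scaled CPM, both axes on a log scale), with the 3 groups in different colours. The tumors with the most Aldh1a3 (M2, M1 and M4) have little Neurog3, and M3 and M6 have the least Aldh1a3 and the most Neurog3.

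Across the 6 tumors, Aldh1a3 and Neurog3 ran in opposite order. Pearson's r of their log levels was -0.90 (exact permutation p = 0.0194, two-sided) and Spearman's rho was -0.83 (exact permutation p = 0.0583). This was 1 of 36 pairs, and after Benjamini-Hochberg adjustment over them the p-values were 0.45 and 0.525. Without M3 and M6, the tumors farthest from the median of Aldh1a3, r was -0.66. A relation between these genes was therefore not established over 6 tumors. Of all 36 pairs, 3 had an unadjusted Pearson p under 0.05 and 0 a Spearman p under 0.05.

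Hes1 (ENSMUSG00000022528, chr16:30064384-30067796, plus strand) encodes the repressor through which Notch signaling acts. It was at 7.78, 12.1 and 10.7 CPM in M1, M2 and M3, at 21.5, 22.2 and 10.2 in M4, M5 and M6, and at 13.8, 20.4 and 18.7 in NI1, NI2 and NI3. M4 and M5 lay above every islet library and the other 4 tumors below. The log2 difference between tumors and islets was -0.33 (SE 0.35, edgeR adjusted p = 0.636), and without NI1 it was -0.48 (adjusted p = 0.49). Between functional and non-functional tumors it was -0.81 (SE 0.34, unadjusted p = 0.0412, adjusted p = 0.48). M6, at 10.2 CPM, sat among the functional tumors, so the groups overlapped.

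Of 26 Notch pathway genes, 21 were tested and 0 passed in edgeR on all libraries, with a median log2 difference of 0.05. Without NI1, 2 of the 21, Nrarp and Mfng, passed as higher in the tumors, a share near the 8.51% of all genes that passed. Nrarp, a feedback target of Notch, was at 17.7 to 31.1 CPM in all 6 tumors, 19.8 in NI1 and 8.08 and 8.13 in NI2 and NI3 (log2 difference 1.61 without NI1, adjusted p = 0.0137, and 1.05 with it, adjusted p = 0.167). Mfng, a glycosyltransferase that modifies Notch receptors, was at 23.0 to 44.5 CPM in the tumors, 32.8 in NI1 and 7.64 and 6.72 in NI2 and NI3 (log2 difference 2.20, adjusted p = 0.00755, without NI1). DESeq2 on all libraries, where 8.06% of all genes passed, called Rfng, Nrarp and Heyl. Rfng, an enzyme related to Mfng, was at 31.5 to 62.2 CPM in tumors and 21.7 to 31.1 in islets. Heyl, another Notch target, was at 9.89 to 21.2 and 6.86 to 9.80. Of ligands and receptors, Dll1 was at 4.13 to 11.7 CPM in tumors and 4.95 to 6.12 in islets and Notch1 was at 37.4 to 69.2 and 58.3 to 72.8. Hey1, a relative of Hes1, was at 3.98 to 12.6 and 5.98 to 12.7 CPM.

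Sox9 (ENSMUSG00000000567, chr11:112782224-112787760, plus strand) encodes the factor that keeps duct-like progenitors, and ducts keep it in the adult. It was at 2.12, 47.6 and 8.73 CPM in M1, M2 and M3, at 9.55, 13.7 and 5.77 in M4, M5 and M6, and at 4.77, 0.659 and 2.43 in NI1, NI2 and NI3. In 5 tumors the level was above every islet library, and M1 lay among the islets. M2 held more than all other tumors, which ranged from 2.12 to 13.7. The mean was 14.6 ± 16.7 CPM in tumors (SD, n = 6) and 2.62 ± 2.06 in islets (SD, n = 3). The log2 difference was 2.47 (SE 0.98) in edgeR with an adjusted p of 0.212, whereas DESeq2 gave an adjusted p of 0.0345. Without NI1 it was 3.24 (edgeR adjusted p = 0.126), and without M2 it was 1.60 (adjusted p = 0.27). Across the 21 alternatives its adjusted p lay between 0.0044 and 0.625. The functional and non-functional groups overlapped, and their log2 difference of 1.01 (SE 1.00, adjusted p = 0.752) became -0.83 without M2.

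Markers of duct cells were examined beside Sox9. Their summed level was 383 to 832 CPM in tumors and 476 to 583 in islets, and 0 of 8 tested markers passed. Krt19, a keratin of ducts, was at 2.22, 44.1, 81.6, 25.05, 79.9 and 9.10 CPM in M1 to M6 and at 7.77, 2.37 and 6.02 in NI1, NI2 and NI3. As for Sox9, 5 tumors lay above every islet library for Krt19 and M1 did not (log2 difference 2.90, adjusted p = 0.182). Cftr, the chloride channel of ducts, stayed at 1.03 CPM or less in every library. The part of duct cells in the level of Sox9 was not tested.

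Sox4 (ENSMUSG00000076431, chr13:28948919-28953713, minus strand) encodes a factor needed in endocrine development. It was at 49.0, 53.4 and 59.4 CPM in M1, M2 and M3, at 107, 94.5 and 41.5 in M4, M5 and M6, and at 46.3, 30.3 and 24.8 in NI1, NI2 and NI3. All 6 tumors lay above NI2 and NI3, and 5 of them lay above NI1 too. The mean was 67.4 ± 26.6 CPM in tumors (SD, n = 6) and 33.8 ± 11.2 in islets (SD, n = 3). The log2 difference was 1.00 on all libraries, 1.29 without NI1 (edgeR adjusted p = 0.0748) and 1.399 without both NI1 and M6 (adjusted p = 0.0496). Functional tumors held 53.9 ± 5.25 CPM and non-functional tumors 80.9 ± 34.7 (SD, n = 3 each), which M6 made overlap (log2 difference -0.58, SE 0.36, adjusted p = 0.591). A noncoding gene on the other strand, Gm26735, covers 54.6% of the exon bases of Sox4. In a library without strand, reads of Gm26735 could count toward Sox4. Gm26735 has no entry in the deposited values, and its part in the level of Sox4 was not tested.

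Sox11 (ENSMUSG00000063632, chr12:27334264-27342574, minus strand), the relative of Sox4 known from embryonic tissues, was at 0.484, 0.439 and 1.89 CPM in M1, M2 and M3 and at 1.07, 1.92 and 0.0528 in M4, M5 and M6. The islets had 0.0171, 0.171 and 0.198 in NI1, NI2 and NI3. The tumors other than M6 lay above every islet library. The level in M6 rested on 3 counts (exact Poisson interval at 95%, 0.0109 to 0.154 CPM) and that in NI1 on 1 count (0.000434 to 0.0955). In a fit without the filter the log2 difference was 2.93 (SE 1.14, edgeR adjusted p = 0.266). Per length of exon the tumor median of Sox11 was 0.0935 CPM per kb, against 11.8 for Sox4.

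Of 16 other members of the Sox family 6 were tested, 0 passed, and the median log2 difference was 0.01. Sox5 was at 0.736 to 2.26 CPM in tumors, 1.17 in NI1 and 5.76 and 4.24 in NI2 and NI3 (log2 difference -1.33, adjusted p = 0.218, and 0.0551 without NI1). Sox13 and Sox17 had log2 differences of -0.24 and 0.56 (adjusted p = 0.592 for each). Among factors of the multipotent pancreatic progenitor 10 of 15 were tested and 0 passed in any of the fits with all libraries, without NI1 or in DESeq2, with a median of 0.07. Pdx1, which starts the pancreas and later serves the beta cell, was at 140 to 239 CPM in tumors and 133 to 150 in islets (log2 difference 0.44, adjusted p = 0.249, and 0.27 without NI1). Mnx1 was at 35.99 to 65.0 and 27.4 to 47.9 (0.62, adjusted p = 0.212, and 0.0624 without NI1), and Hhex, which delta cells keep, at 2.16 to 11.8 and 3.65 to 14.0 (-0.70, adjusted p = 0.541, and 0.327 without NI1).

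**Figure D4:**
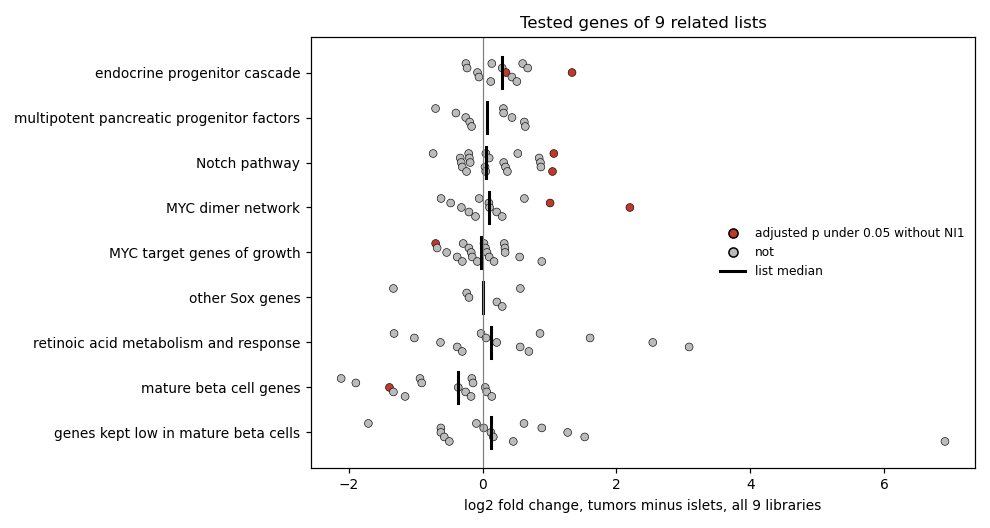
Log2 difference between tumors and islets of each tested gene in the 9 lists that surround these genes, all libraries, with each list's median as a line. The medians lie between -0.36 (mature beta cell genes) and 0.29 (endocrine progenitor cascade), and 0 genes in the lists passed in edgeR.

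Myc (ENSMUSG00000022346, chr15:61985391-61990374, plus strand) encodes the widely used member of the MYC family, and it was the one gene of the 9 whose tumors and islets did not overlap. It was at 5.14, 7.29 and 4.33 CPM in M1, M2 and M3, at 8.20, 5.65 and 19.2 in M4, M5 and M6, and at 20.1, 25.7 and 22.1 in NI1, NI2 and NI3. All 6 tumors lay below all 3 islet libraries, 5 of them at 8.20 CPM or less and M6 just under NI1. The mean was 8.31 ± 5.54 CPM in tumors (SD, n = 6) and 22.6 ± 2.82 in islets (SD, n = 3). The log2 difference was -1.44 (SE 0.43, unadjusted p = 0.00689), with an edgeR adjusted p of 0.161 on all libraries, and DESeq2 gave -1.45 with an adjusted p of 0.0308. Without NI1 it was -1.52 (edgeR adjusted p = 0.092). Without M6 it was -1.89 (SE 0.27, edgeR adjusted p = 0.0192), so this library decided the call. Across the 22 alternatives its adjusted p lay between 0.0103 and 0.582 and the difference between -2.04 and -1.23.

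Functional tumors had 5.58 ± 1.53 CPM of Myc and non-functional tumors 11.03 ± 7.22 (SD, n = 3 each). The ranges overlapped, and the log2 difference of -0.98 (SE 0.44, unadjusted p = 0.0517) had an edgeR adjusted p of 0.487. Without M6 it was -0.31 (adjusted p = 0.704), so this library held most of the difference.

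Myc is also an immediate early gene, and genes that respond to tissue dissociation moved the same way. Of 15 such genes 14 were tested and 10 fell in edgeR on all libraries (median log2 difference -2.60). In that fit 0.258% of all genes passed, and Myc did not. Their summed level was 176 to 394 CPM in tumors, 834 in NI1 and 3049 and 1698 in NI2 and NI3. M6 had 248 CPM of these genes, within the range of the other tumors, while its Myc was at 19.2. The part of the handling of islets in the Myc difference was not tested.

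Mycn (ENSMUSG00000037169, chr12:12936093-12941914, minus strand), a MYC gene of embryonic and neural tissues, was at 5.74, 2.11 and 10.4 CPM in M1, M2 and M3 and at 3.25, 4.03 and 4.35 in M4, M5 and M6. The islets had 4.08 in NI1, 1.88 in NI2 and 0.570 in NI3. All 6 tumors lay above NI2 and NI3, but NI1 lay within the tumor range. The log2 difference was 1.19 (SE 0.66, edgeR adjusted p = 0.343), and without NI1 it was 2.02 (SE 0.75, adjusted p = 0.121, and 0.0254 in DESeq2). Without NI3 it was 0.74 (edgeR adjusted p = 0.749). Functional tumors had 6.09 ± 4.16 CPM and non-functional tumors 3.87 ± 0.564 (SD, n = 3 each; log2 difference 0.65, SE 0.73, adjusted p = 0.782, and 0.02 without M3).

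The stretch from 200 to 101 bases before the RefSeq start of Mycn (GRCm38.p6, chr12:12941937-12942036, minus strand) is shown because it held 3 matches to the E2F motif, a motif of cell cycle genes. Capitals mark these matches, the first pair of which overlap on opposite strands.
Mycn: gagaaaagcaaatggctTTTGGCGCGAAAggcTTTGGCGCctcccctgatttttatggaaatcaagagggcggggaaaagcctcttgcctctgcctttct
Proliferation genes had a summed level of 337 to 1001 CPM in tumors, 315 in NI1, 168 in NI2 and 52.6 in NI3. None of the 10 tested passed in edgeR on all libraries (median log2 difference 1.74). Mycn was highest in M3 and lowest in NI3, as was the proliferation sum, but the order differed between these ends. Among tumors the sum was lowest in M6 (337 CPM), where Mycn was at 4.35. Mycn was lowest in M2 (2.11), where the sum was 614. The part of dividing cells in the level of Mycn was not tested.

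Mycl (ENSMUSG00000028654, chr4:122995652-123002485, plus strand) was at 0.141, 0.0849 and 0.618 CPM in M1, M2 and M3, at 1.55, 0.246 and 2.34 in M4, M5 and M6, and at 2.04, 1.56 and 1.39 in NI1, NI2 and NI3. M1, M2, M3 and M5 lay below every islet library, M4 lay among them and M6 above. The log2 difference between tumors and islets was -1.01 (SE 0.92, edgeR adjusted p = 0.565). It was -0.84 without NI1 (adjusted p = 0.667) and -1.69 without M6 (adjusted p = 0.285). Functional tumors had 0.281 ± 0.293 CPM and non-functional tumors 1.38 ± 1.06 (SD, n = 3 each), a log2 difference of -2.29 (SE 0.95, unadjusted p = 0.0392, adjusted p = 0.48), and M5 made the groups overlap. This difference was -3.59 without M3 (adjusted p = 0.66) and -1.65 without M6 (adjusted p = 0.485).

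**Figure D5:**
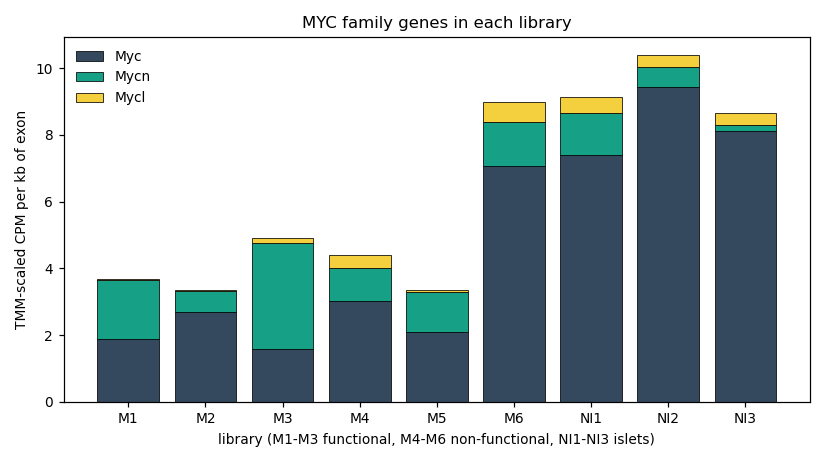
Summed level of Myc, Mycn and Mycl per kb of exon in each library, divided into the share of each gene. The sum is 3.34 to 4.91 CPM per kb in M1 to M5 and 8.64 to 10.4 in M6 and the islet libraries, and the share of Mycn is 64.4% in M3 and 2.001% in NI3.

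Per length of exon the MYC genes could be set beside each other. Their sum was 3.67, 3.34, 4.91, 4.39 and 3.36 CPM per kb in M1 to M5, and 8.98 in M6. In the islets it was 9.14, 10.4 and 8.64 in NI1, NI2 and NI3. Myc made up 94.0% of the sum in NI3 and 90.8% in NI2, against 32.5% in M3 and 51.5% in M1. Mycn made up 64.4% in M3, the one library in which it exceeded Myc per length, and 47.5% in M1. Mycl made up 8.72% at most, in M4. The ratio of Mycn to Myc in CPM was 1.12, 0.289, 2.41, 0.396, 0.713 and 0.226 in M1 to M6 and 0.203, 0.0732 and 0.0258 in NI1, NI2 and NI3. Every tumor was thus above every islet library in this ratio, M6 only just above NI1. The ratio was looked at after the values were seen and is given without a test.

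Of the 13 genes of the network in which MYC and MAX pair with other factors, all were tested and 0 passed on all libraries (median log2 difference 0.10). Without NI1 and, separately, in DESeq2 the same 2 passed as higher, Mxd3 and Mlxipl, where 8.51% and 8.06% of all genes passed. Mxd3, a MAX partner of dividing cells, was at 10.4, 10.4, 14.8, 11.2, 25.7 and 5.96 CPM in M1 to M6 and at 4.65, 2.98 and 0.892 in NI1, NI2 and NI3, with no overlap (log2 difference 2.20, edgeR adjusted p = 0.15, and 2.76 without NI1, adjusted p = 0.0409). Mlxipl, the glucose-responsive factor ChREBP, was at 657 to 1245 CPM in the tumors, 676 in NI1 and 408 and 221 in NI2 and NI3 (log2 difference 1.48 without NI1, adjusted p = 0.0481). Mxd4, a MAX partner of resting cells, was at 74.7 to 163 CPM in tumors and 160.0 to 214 in islets (-0.62, adjusted p = 0.234, and 0.153 without NI1).

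Of the 20 MYC target genes of growth all were tested, 0 passed on all libraries, and the median log2 difference was -0.03, with 10 of 20 above 0. Without NI1, Odc1, the first enzyme of polyamine synthesis and a direct MYC target, fell (46.5 to 71.6 CPM in tumors, 57.7 in NI1, and 96.0 and 119 in NI2 and NI3, log2 difference -0.94, adjusted p = 0.0247). Hspd1, a mitochondrial chaperone, was at 93.8 to 199.9 CPM in tumors and 122 to 271 in islets (-0.68, adjusted p = 0.239, and 0.0786 without NI1). Nop56, of ribosome assembly, pointed the other way at 67.1 to 110 CPM in tumors, 76.6 in NI1 and 45.8 and 52.2 in NI2 and NI3 (log2 difference 0.55, adjusted p = 0.207, and 0.0554 without NI1). Ncl, which encodes nucleolin, was at 261 to 385 CPM in tumors and 261 to 293 in islets.

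Between functional and non-functional tumors, the question was whether tumors labelled for insulin differed in these genes. None of the 8 passed in edgeR, nor did any gene of the table (0% of 15532), with 1598 genes at an unadjusted p under 0.05 and 111 called by DESeq2, none of which was among the 8. Hes1 and Mycl, 2 of 8, had an unadjusted p under 0.05, as did 10.3% of all tested genes. The groups overlapped in all 8 genes. Of all tested genes 15% did not overlap, a share too small to set these 8 genes apart.

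The genes whose log levels ran most like these over the 9 libraries were named by Pearson's r as a description. All points share the libraries and their scaling. For Aldh1a3 they were Gsdma (r = 0.96), at 6.17 to 15.8 CPM in M1, M2, M4 and M5 and at 0.927 and 0.0352 in M3 and M6, and Erich1 (0.95). For Neurog3 they were Ighv1-80 (0.975) and Amph (0.974), and for Sox9 Pigr and Snx8 (0.96 each). They were Nucks1 and Tmem273 for Sox4 (0.99 each), Rps2-ps10 and Mtdh for Hes1 (0.95 each), and Rhobtb1 and Lbh for Myc (0.96 each). For Mycn they were Pde4a and Rexo5 (0.98 each), and for Mycl Mob3b (0.985) and Kif21b (0.965). Likeness was not tested.

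Of the other marker lists examined, summed acinar markers were at 0.766 to 33.4 CPM in M1 to M5, 209 in M6 and 315 to 5863 in the islets. Macrophage markers were at 417 to 1160 CPM in tumors and 178 to 391 in islets. Lymphoid markers were at 19.2 to 116 and 165 to 217, with 2 of 8 lower in edgeR, where 0.258% of all genes passed. Markers of pericytes and smooth muscle were at 503 to 1397 and 458 to 555 CPM, of endothelium at 354 to 1101 and 961 to 1073, and of Schwann cells at 78.5 to 139 and 99.8 to 103. Hormone and factor genes of alpha, delta and PP cells were at 385 to 3511 and 1414 to 20320 CPM, those of beta cells at 18238 to 116474 and 121672 to 364747, and neuroendocrine genes at 10200 to 32956 and 17182 to 34706. The 2 most abundant genes were Ctrb1 and Cela2a (acinar), Krt7 and Spp1 (ductal), Col1a1 and Col3a1 (fibroblast), Rgs5 and Acta2 (pericyte), Plvap and Kdr (endothelial), Lyz2 and C1qa (macrophage), and Cd79a and Ptprc (lymphoid). They were Gcg and Ppy (alpha, delta and PP), Ins2 and Ins1 (beta), Top2a and Mki67 (proliferation), Fos and Jund (dissociation), and Chga and Scg2 (neuroendocrine), and Mbp led the Schwann list. Chga, the secretory granule protein used to identify these tumors, was at 3698 to 21835 CPM in tumors and 6923 to 21239 in islets. The part of these cell types in the levels of the 9 genes was not tested.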

How the data were processed

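Libraries were sequenced as single-end reads of 75 bp, with a kit that does not mark strand. The authors trimmed the reads with Trimmomatic 0.38 and quantified them with Salmon 1.4.0 on mm10. The values they deposited are estimated counts, given as whole numbers and unscaled, and the step from transcripts to genes is not described. Symbols and positions came from GENCODE M21 (GRCm38), and 253 identifiers without a match held 0.0121% of counts. A gene was tested if it reached 1 CPM in 3 or more of the 9 libraries (15532 genes). After TMM scaling, edgeR 4.0.16 (R 4.3.3) compared the 6 tumors with the 3 islet libraries by quasi-likelihood, and functional with non-functional tumors in a fit of 3 groups. P-values were two-sided and adjusted by Benjamini-Hochberg over all tested genes, with a threshold of 0.05, and the scripts were first tested on simulated counts. Alternatives were DESeq2 1.42.0, limma 3.58.1, other filters and scalings, a replicate block and the omission of single libraries.

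The 9 genes and all lists were chosen with earlier results of these data known. The rule for naming took the 9 genes, the 3 genes of smallest p in each list, the 2 genes most alike to each, and the 2 most abundant genes of each marker list. Others (Pax4, Mfng, Neurod1, Insm1, Fev, Dll1, Notch1, Hey1, Ncl, Mafa, Nkx6-1, Iapp, Krt19, Cftr and Fam241b) were named after their values were seen, and a few genes of the lists are not reported here. For deviations from group means, same-numbered libraries of M1 to M3 and the islets had r of -0.024, 0.007 and -0.103. Differently numbered ones had r of -0.085 to 0.116. This gave no ground to pair libraries by number, though a low r cannot exclude a shared origin.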

Additional observations from a re-analysis of the deposited data

Results flagged for a closer look

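Of 22 measures over the 6 tumors, taken as CPM, 3 had 1 tumor set far from the other 5. The rule was a gap to the nearest tumor of over 0.625 of the range. For independent, normally distributed measures it flags about 1 in 20 (1.1 of 22). CPM values are skewed and the measures share libraries, so the 3 flags cannot be set against that rate. Sox9 in M2 was at 47.6 CPM, and the other tumors ranged from 2.12 to 13.7. Myc in M6 was at 19.2 CPM, and the others ranged from 4.33 to 8.20. The summed acinar markers in M6 were at 209 CPM, and the others ranged from 0.766 to 33.4. M6 is also the tumor whose profile was closest to the library labelled NI1, which held 20.1 CPM of Myc and 315 CPM of acinar markers.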

How the results depend on the processing

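The count of the 8 genes past the threshold between tumors and islets, 0 in edgeR on all libraries, was 2 in DESeq2, 2 without both M6 and NI1, and 4 in DESeq2 with NI1 left out (the last pair of settings added after the data were seen). It ranged from 0 to 1 as each library was left out, with 1, Myc, without M6. The other filters and scalings, limma, robust dispersion and tumors taken as the mean of their groups left it at 0. Genes called over the whole table ranged from 7 without NI3 to 1321 without NI1 in edgeR with 1 library left out, against 40, and were 1252 in DESeq2, 2950 in DESeq2 with NI1 left out, 1451 without both M6 and NI1, 104 without a filter, 11 with 1 CPM required in every library, 66 by library totals and 98 with tumors as the mean of their groups. A replicate block over the shared numbers, which are not known to pair the samples, gave 0 of the 8 genes and 40 genes in all (12 higher, 28 lower, against 0 and 40). The sign of Neurog3 between tumors and islets turned from -0.30 to 0.53 without NI1 and to 0.52 in DESeq2 with NI1 left out (range -1.02 to 0.53 as each library was left out). Between functional and non-functional tumors Neurog3 turned from -0.83 to 0.71 without M6, and to 0.71 without both (range -4.71 to 0.71), and Sox9 from 1.01 to -0.83 without M2 (range -0.83 to 1.54). The cause of these changes was not tested. Of the other values of single genes between tumors and islets, 161 kept their direction and side of the threshold and 9 passed it in addition. Scaling by library totals alone moved the median of all genes to a log2 difference of 0.25 between tumors and islets and 0.32 between tumor groups. Depth limits Neurog3 in M1 and Sox11 in M6 and NI1, which rest on 3 counts or fewer.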
